A study of Mus musculus with 2 samples.

Results

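The genes described here encode enzymes of the urea cycle and of amino acid breakdown in mouse liver. They are 38 genes of 55421 in the deposited count tables, chosen by name through the GENCODE M21 annotation and sorted into 9 pathways. RNA was sequenced in 2 libraries, 1 for each genotype. The WT library came from livers of mice with floxed Rcrin alleles, and the other came from livers of Rcrin conditional knockout mice. Both carry a time label of 8 weeks. The Cre line, the cells in which the gene was deleted, the number and sex of the mice and their feeding state are not named in the labels. With 1 library per genotype there was no measure of the spread between mice, so no test was made and the values compare these libraries alone. Rcrin was not analysed here.

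The liver takes up amino acids from food and from body protein, removes their nitrogen and burns or converts the carbon that is left. Aminotransferases pass the nitrogen to glutamate and aspartate, glutamate dehydrogenase and glutaminase release it as ammonia, and the urea cycle joins ammonia and aspartate into urea for excretion by the kidney. The carbon chains of tyrosine, tryptophan, histidine, proline and the branched chain amino acids each have a pathway of their own, and methionine feeds a cycle that supplies methyl groups. Most of these enzymes are made mainly by hepatocytes. Urea cycle enzymes stand highest around the portal vein. Fasting, a high protein diet, glucagon and glucocorticoids are known to raise many of them.

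Most of these genes stood slightly higher in the knockout library. Of the 38 members, 27 had a log2 ratio of knockout over WT above 0 (71.1%, against 49.2% of all genes compared) and 11 had one below 0. Ratios were taken after scaling of the libraries by TMM, a method that centres most genes on no change. The median log2 ratio of the members was 0.34, against -0.01 over the 12064 genes whose counts averaged 50 or more in the libraries, called all genes compared below. Only 2 members, Glud1 and Tdo2, were higher by at least 2-fold, or 5.26% of the members, against 8.45% of all genes compared. None was lower by 2-fold, a difference that 8.61% of all genes showed. A shift of 1.5-fold or more upward was seen in 13 members (34.2%) and a shift of that size downward in 1 (2.63%), Mat1a, against 19.0% and 18.8% of all genes compared.

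All members are abundant genes with many exons, so a closer background is the 4725 genes that have at least 4 exons and averaged 1000 counts or more. These genes were not matched to the members on cell type. In that background the median was -0.01 and 48.8% of genes lay above 0, against 71.1% of the members. There, 5.50% were higher and 5.31% lower by 2-fold, and 15.8% were higher and 14.5% lower by 1.5-fold. At 2-fold, the share of members higher (5.26%) was thus close to that of these genes, and no member was lower. At 1.5-fold, a larger share of members was higher (34.2%) and a smaller share lower (2.63%) than in this background. Members are not replicates, and these shares describe 2 libraries. Every member had an interval that did not include 0, but these exact 95% intervals cover counting error only.

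**Figure D1:**
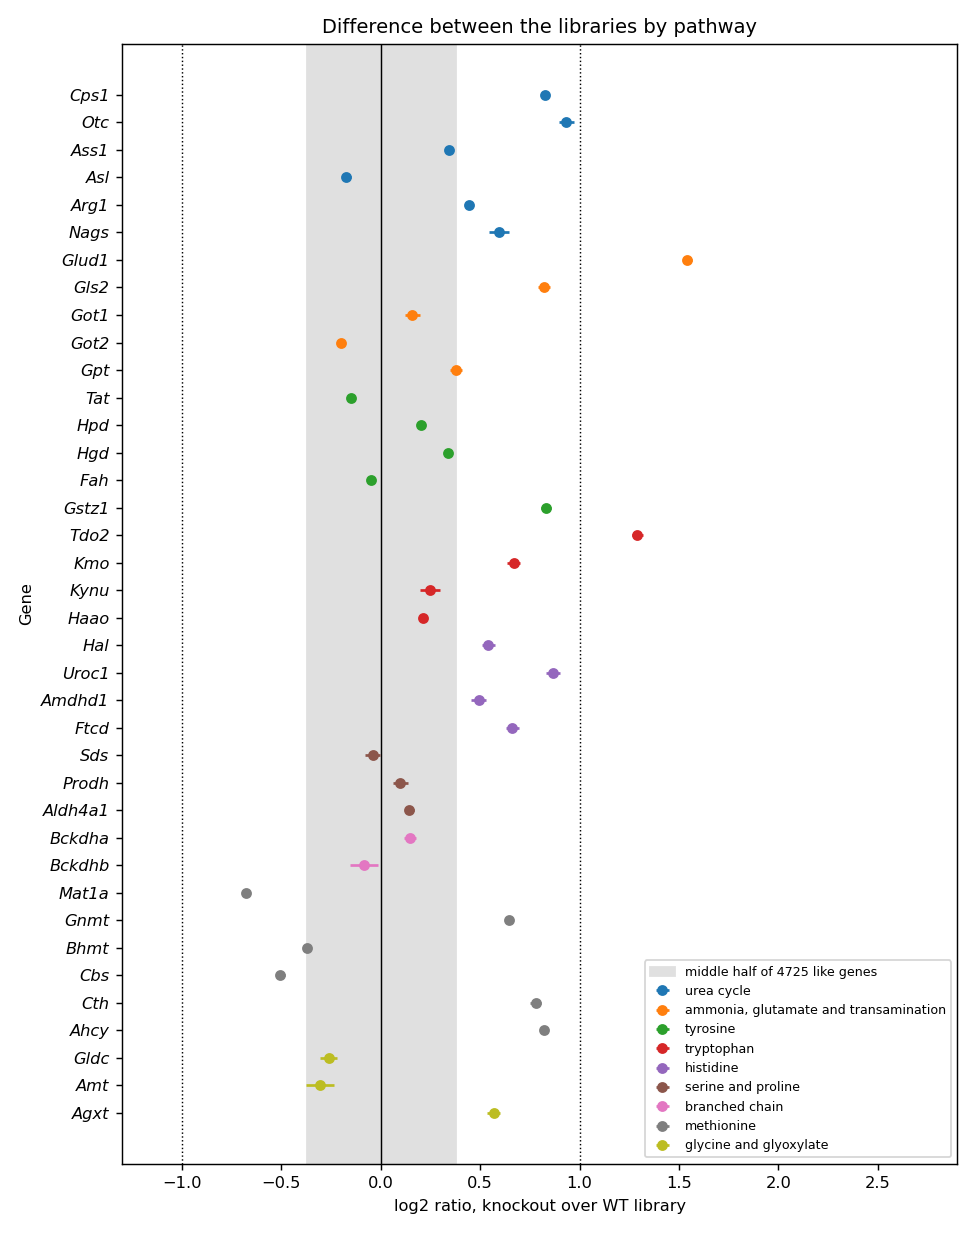
The log2 ratio of knockout over WT library (x axis) is plotted for each of the 38 members (y axis, 1 point per gene, coloured by pathway), with the exact interval for counting error as a bar that is often narrower than the point. The grey band holds the interquartile range of 4725 like genes, from -0.37 to 0.38, and dotted lines mark 2-fold, which only Glud1 and Tdo2 exceed.

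The totals were 65121596 counts (WT) and 63587567 counts (knockout). Together the members took 2.53% of the WT counts (exact interval 2.531% to 2.538%) and 3.01% of the knockout counts (3.005% to 3.013%). Markers of hepatocytes such as albumin, 10 of 10 detected, summed to 144256 CPM (counts scaled to library size) in the WT library and 181748 CPM in the other, a log2 ratio of 0.33. Without albumin, the other 9 markers summed to 93713 and 92123 CPM (-0.02), but single markers went both ways. Of the 10, 6 were higher and 4 lower, with a median log2 ratio of 0.22, against 0.34 for the members. With a trend of the ratios with GC content taken out, these medians were 0.37 and 0.40. The lowest was Trf, with 2213531 and 1091922 counts (-0.93), and the highest was Apoa2, with 412681 and 1096775 counts. The hepatocyte sum thus depended on which abundant genes it held. Marker sums of Kupffer cells and macrophages (10 of 10 detected, 1790 and 1262 CPM, -0.50), neutrophils (10 of 10, 64.0 and 24.1, -1.41) and erythroid cells (9 of 10 matched, 3089 and 786, -1.97, Epb42 at 0 in both) stood lower. Of the markers compared, 8 of 10, 8 of 8 and 5 of 7 were lower. The exceptions were Vsig4 (1.02) and Timd4 (0.41) among macrophage markers, and Alas2 (0.55) and Klf1 (0.40) among erythroid ones. Sums for sinusoidal endothelium (0.01), stellate cells (-0.15), cholangiocytes (0.15, Cftr at 0 in the WT library) and lymphocytes (0.14) were close to equal, but genes within each list went both ways. Tstd1 held 252 of the 3076 cholangiocyte counts in the WT library and 1377 of 3213 in the other, while Spp1 was lower (-1.02). Of the 8 cholangiocyte markers compared, 4 lay above 0. Endothelial markers ran from Oit3 (-1.13) to Bmp2 (2.23), with 5 of 10 above 0. Above 0 lay 3 of 10 stellate and 3 of 7 lymphocyte markers. In bulk tissue, fewer cells of a type and less RNA per cell cannot be told apart. The part of these differences in the values below was not tested.

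Levels per transcript length spanned a wide range. On the TPM scale (counts per exon length, scaled to the same total in each library), the lowest member in both libraries was Kynu, with 34.2 TPM (WT) and 36.8 TPM (knockout). The highest was Gnmt, with 4736 and 6709, at ranks 34 and 23 of the genes compared. The median member had 197 TPM (WT) and 234 TPM (knockout). After Gnmt, the highest were Ass1 (2471 and 2836 TPM), Hpd (2349 and 2449) and Tat (1586 and 1295), so single enzymes of methyl transfer, urea synthesis and tyrosine breakdown led the set in the WT library. In the knockout library Ahcy (2077 TPM) and Arg1 (1530 TPM) stood above Tat. A log2 ratio on the TPM scale is 0.14 lower for every gene than on the TMM scale, and the median of all genes moves with it, from -0.01 to -0.15. The ratios in the text are on the TMM scale unless another is named.

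**Figure D2:**
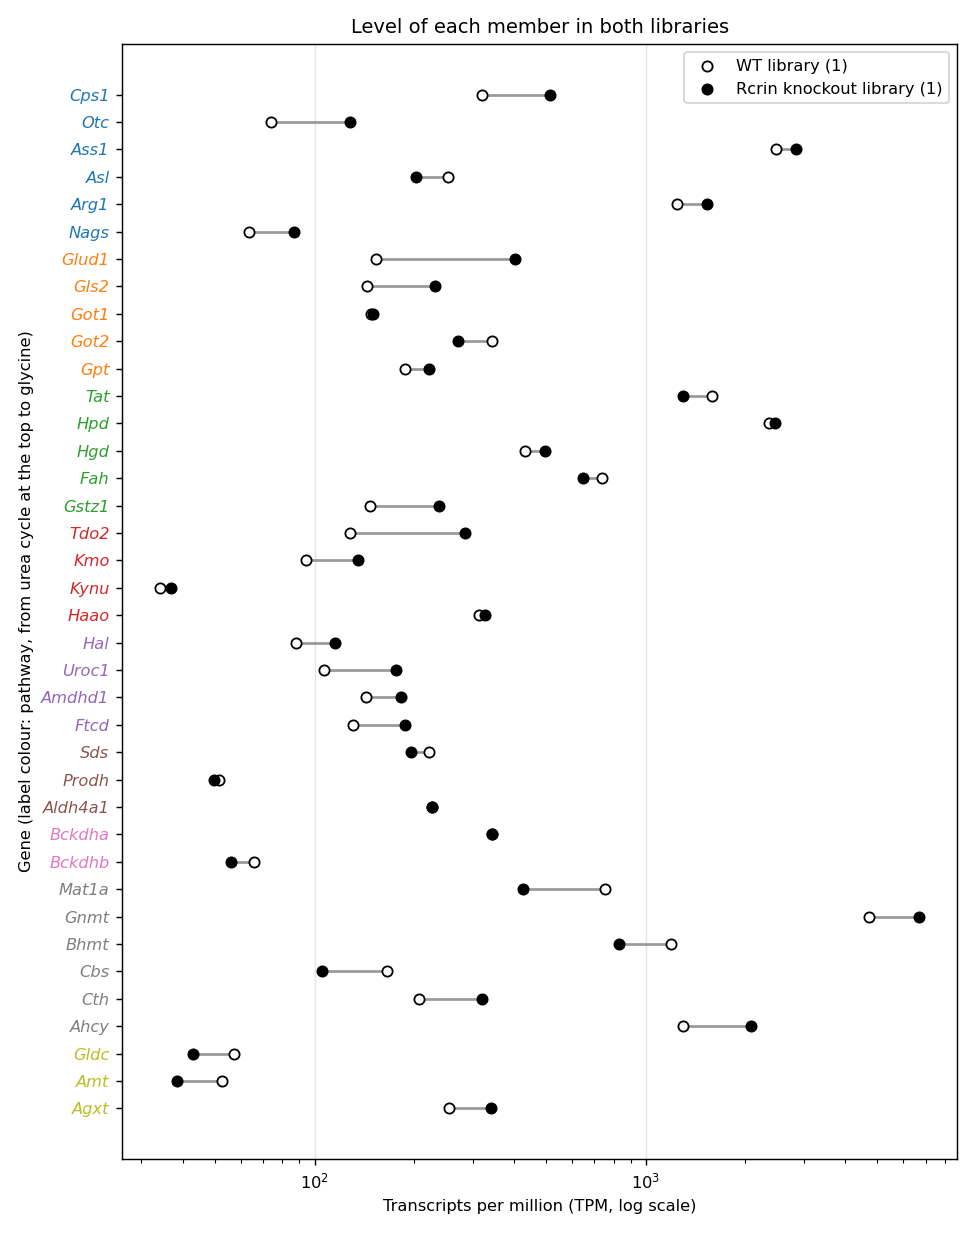
The level of each member in TPM (x axis, log scale) is shown for the WT library (open circle) and the knockout library (filled circle), with genes on the y axis and their names coloured by pathway. Gnmt lies highest in both libraries and Kynu lowest, and the longest line joins the values of Glud1, 153 and 403 TPM.

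Of the 6 genes of urea synthesis, 5 stood higher in the knockout library and 1 lower, with a median log2 ratio of 0.52. Cps1 makes carbamoyl phosphate from ammonia in mitochondria and is the entry point of the cycle. It lies on chromosome 1 from 67123026 to 67231259 (GRCm38) and had 51685 WT counts and 86353 knockout counts, 1.77-fold higher (log2 ratio 0.83, interval 0.81 to 0.84). Otc joins carbamoyl phosphate to ornithine. This gene, on the X chromosome from 10252305 to 10321024, had 9111 and 16393 counts, a log2 ratio of 0.93 (interval 0.90 to 0.97). It was the largest of the cycle on this scale, but came to 0.48 after a GC content trend was taken out, below Nags (0.86), Cps1 (0.64) and Ass1 (0.54). Nags makes N-acetylglutamate, the activator without which Cps1 is inactive, and had 5228 and 7435 counts (0.59). Its exons share 15.6% of their bases with a gene on the opposite strand. These 3 genes encode the mitochondrial part of urea synthesis.

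The cytosolic steps differed less on the TMM scale. With the GC trend removed this did not hold for each gene, since Ass1 (0.54) stood above Otc (0.48), with Arg1 at 0.32. Ass1, which joins citrulline to aspartate, had 173605 and 207445 counts (log2 ratio 0.34), and 38.6% of its 50-base words also occur in the related locus Gm5424, so the split of reads is uncertain. Asl, which splits the product into arginine and fumarate, was the lower one, with 35534 and 29713 counts (-0.17, or 0.06 with the GC trend removed, so its direction is not firm). Arg1, which releases urea and which macrophages can also express, had 80656 and 103263 counts (0.44) while the macrophage marker sum stood lower. Together the 6 genes took 0.546% of WT counts and 0.709% of knockout counts.

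Glutamate dehydrogenase and glutaminase stood higher, and the aminotransferases went both ways. Glud1 encodes glutamate dehydrogenase, which turns glutamate into 2-oxoglutarate and ammonia. It had 18725 WT counts and 51413 knockout counts, 2.91-fold higher (log2 ratio 1.54, interval 1.52 to 1.57). This exceeded the difference of any other member and lay at percentile 96.1 of all genes compared. Of its 50-base words, 6.49% occur in other transcripts, among them the pseudogene Glud-ps. Gls2, the liver glutaminase that releases ammonia from glutamine, had 14607 and 24297 counts (0.82). The 3 aminotransferases were Got1 (10957 and 11520 counts, 0.16), its mitochondrial counterpart Got2 (48256 and 39628 counts, -0.20) and the alanine aminotransferase Gpt (16069 and 19682 counts, 0.38, or 0.63 with the GC trend removed). Got2 shares 25.6% of its 50-base words with other loci, pseudogenes among them.

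Glud1 lies on chromosome 14 from 34310727 to 34345265, plus strand. The bases before its start, taken from RefSeq (GRCm38.p6, chr14:34310494-34310726, plus strand) and cut to hold no annotated exon, are shown because it is the member with the largest difference. Capitals mark the CG dinucleotides, 42 in 233 bases.
Glud1: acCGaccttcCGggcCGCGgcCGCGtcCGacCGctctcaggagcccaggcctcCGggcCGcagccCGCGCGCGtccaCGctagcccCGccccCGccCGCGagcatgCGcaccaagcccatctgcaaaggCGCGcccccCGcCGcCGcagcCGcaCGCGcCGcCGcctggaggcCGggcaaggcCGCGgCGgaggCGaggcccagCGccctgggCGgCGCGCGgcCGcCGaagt
Over the 250 bases before the start, 82.0% were G or C and 46 CG dinucleotides were counted, against medians of 52.4% and 6 over 32851 promoter windows. The window of Tdo2, the other member past 2-fold, was unlike it, with 46.4% G or C and 3 CG dinucleotides. That window lies inside an exon of GENCODE M21 and its letters are not shown.

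Promoter windows were found for 29 of the 38 members, and letters bound by factors known to act on these genes were counted in the 250 bases before the start. The C/EBP motif TTGCNNAA, on either strand, stood in 2 of the 29 members (6.90%), Hgd and Hal, and in 9.56% of all windows. The core letters TGACG of the cAMP response element stood in 2 (6.90%), Gstz1 and Ftcd, against 17.8% of all windows, and the full site TGACGTCA, which contains it, in 0 of 29 against 1.55%. The core letters TGTTCT of the glucocorticoid response element stood in 3 (10.3%), Haao, Bckdhb and Agxt, against 16.1%. The HNF4 letters CAAAGTCCA were in 0 members and 0.384% of windows. TATAAA on the gene's own strand was in 2 members (6.90%), Tdo2 and Ftcd, and in 7.59% of windows. The members' percentages are per gene, while those of all windows are per window. Over the 31 windows of the 29 members, the shares were 6.45% for C/EBP, TGACG and TATAAA and 9.68% for TGTTCT. The motif values are counts of letters in a short window, and enhancers farther away were not searched.

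In tyrosine breakdown the largest difference was at 1 step, Gstz1, and the other log2 ratios lay between -0.15 and 0.34. The median log2 ratio of its 5 genes was 0.20. Tat, which removes the amino group of tyrosine and is a classic glucocorticoid target, had 111028 and 94394 counts (-0.15). Hpd, which makes homogentisate, had 145471 and 157875 counts (0.20, or 0.39 with the GC trend removed). Hgd, which opens the ring of homogentisate, had 32933 and 39228 (0.34, or 0.25 with that correction). Gstz1, which turns maleylacetoacetate into fumarylacetoacetate, had 21791 and 36545 counts, 1.78-fold higher (0.83). Its exons share 12.2% of their bases with genes on the opposite strand. Fah, the last enzyme, had 47535 and 43352 counts (-0.05, or 0.05 with the GC trend removed).

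All 4 tryptophan members stood higher in the knockout library, with the largest ratio at Tdo2. Tdo2, on chromosome 3 from 81957090 to 81976202, opens the indole ring of tryptophan and controls entry into the kynurenine pathway. It had 14471 WT counts and 33362 knockout counts, 2.45-fold higher (log2 ratio 1.29, interval 1.26 to 1.32, or 0.96 with the GC trend removed). Afmid, the next enzyme and not a member, had 2802 and 10090 counts (1.93), but 46.6% of its exon bases are shared with neighbouring genes. Kmo, the hydroxylase that follows, had 12937 and 19377 counts (0.67). The later enzymes differed less, with 6119 and 6852 counts for Kynu (0.25, or -0.11 with the GC trend removed) and 42662 and 46512 for Haao (0.21). The order of sizes from Afmid to Haao follows the order of the steps on this scale, but not with the GC trend removed, where Haao was at 0.39. Other genes of tryptophan use that are no members went both ways. Ido2, which acts at the same step as Tdo2, had 3794 and 2632 counts (-0.44), and Acmsd had 1343 and 1024 (-0.31). Aadat had 3615 and 5018 counts (0.56), and Qprt (0.05), Kyat3 (0.12) and Kyat1 (0.22) differed less. Macrophages can express Kmo and Kynu too, and the macrophage marker sum stood lower in the knockout library.

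The 4 genes of the histidine pathway had log2 ratios between 0.49 and 0.86, a median of 0.60, and all were higher in the knockout library. Hal, the ammonia lyase that starts the pathway, had 14155 and 19411 counts (0.54). Uroc1, which acts on the urocanate that Hal makes, had 10808 and 18552 (0.86, or 1.03 with the GC trend removed). Amdhd1, the imidazolonepropionase, had 10054 and 13337 (0.49), and Ftcd, which passes the formimino group to folate, had 12164 and 18145 (0.66). The share of counts in these genes was 0.0725% for WT and 0.109% for the knockout.

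Serine, proline and branched chain genes lay between -0.09 and 0.15, but these values depended on the GC correction. Sds, the serine dehydratase, had 10922 and 10007 counts (log2 ratio -0.04, or 0.21 with the GC trend removed). Of its exon bases, 29.6% are shared with genes on the opposite strand. Prodh, which begins proline oxidation, had 11667 and 11774 counts (0.10, or -0.05 on the TPM scale and 0.33 with the GC trend removed), and Aldh4a1, which completes it to glutamate, had 32319 and 33652 (0.14, or 0.39 with that correction). Aldh4a1 shares 32.5% of its exon bases with an overlapping gene. Bckdha and Bckdhb encode the subunits of the enzyme that commits branched chain keto acids to breakdown. They had 18915 and 19751 counts (0.15) and 3451 and 3065 counts (-0.09), or 0.40 and -0.34 with the GC trend removed, and 61.7% of the exon bases of Bckdha overlap B3gnt8 on the other strand.

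Methionine genes split into both directions within a single cycle. Of the 6 genes, 3 were higher and 3 lower, and the median of 0.14 describes neither set. Mat1a, which makes S-adenosylmethionine, the methyl donor, lies on chromosome 14 from 41105035 to 41124412. It had 76219 WT counts and 44853 knockout counts, 1.60-fold lower (log2 ratio -0.68, interval -0.70 to -0.66), the lowest of all members. Gnmt, which uses up S-adenosylmethionine to methylate glycine, had 166188 and 245151 counts (0.65). Ahcy, which splits the S-adenosylhomocysteine left over, had 106090 and 176552 (0.82), and 68.7% of its 50-base words also occur in other loci, such as Gm4737. The gene that makes the methyl donor was thus lower while a gene that spends it and the gene that clears the product were higher.

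The exits from homocysteine were split as well. Bhmt, which remethylates homocysteine with betaine, had 199083 and 144928 counts (log2 ratio -0.37), and 26.1% of its 50-base words are found in other loci, Bhmt-ps1 among them. Cbs, which joins homocysteine to serine, had 35951 and 23880 counts (-0.50). Cth, which turns the product of Cbs into cysteine, had 16749 and 27099 counts, 1.72-fold higher (0.78). Neighbouring steps of transsulfuration therefore stood on opposite sides. With the GC trend removed, none of these 6 changed direction, and Ahcy came to 1.07.

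The glycine cleavage system was split, and Agxt, a gene of glyoxylate removal, was higher. Gldc and Amt, subunits of the mitochondrial glycine cleavage system, had 10110 and 7946 counts (log2 ratio -0.26) and 3724 and 2841 counts (-0.31). Its other subunits, which are no members, stood on the other side, with 7552 and 9461 counts for Gcsh (0.41) and 3499 and 4663 for Dld (0.50), an enzyme that other complexes share. Agxt, which turns glyoxylate into glycine in peroxisomes, had 12589 and 17581 counts, 1.48-fold higher (0.57). Grhpr, a glyoxylate reductase that is no member, was nearly equal, with 29041 and 26839 counts (-0.03).

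Members were also sorted by features the choice of genes did not use. The 12 mitochondrial members had a median log2 ratio of 0.15, with 8 above 0, and ran from Amt at -0.31 to Glud1 at 1.54. The 23 cytosolic members had a median of 0.34, with 16 above 0, and ran from Mat1a at -0.68 to Tdo2 at 1.29. With the GC trend removed the medians were 0.40 and 0.39, so that gap closed. The 10 members known as periportal (urea cycle genes other than Nags, with Gls2, Sds, Hal, Uroc1 and Gldc) had a median of 0.49, and the other 28 members one of 0.23 (0.48 and 0.39 with the GC trend removed). Periportal genes outside these pathways did not share that level. Of 11 of them, 4 lay above 0, with a median of -0.17 (0.03 with the GC trend removed), and they ran from Apoc2 (-0.88) to Hsd17b6, with 4816 and 16292 counts (1.84), the only one past 2-fold. Both ends are uncertain, since Apoc2 shares 79.5% of its exon bases with Gm44805 on the same strand. Of the 50-base words of Hsd17b6, 12.1% occur in other loci, such as Rdh16f1. Of 12 pericentral genes that are no members, 5 lay above 0, with a median of -0.04.

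Among other enzymes of the same pathways, chosen from textbook maps, 74 of 78 could be compared. Of these, 9 were higher and 2 lower by 2-fold, against 8.45% and 8.61% of all genes compared. Above 0 lay 44 of the 74, against 49.2% of all genes compared. The median log2 ratio was 0.19 (0.05 on the TPM scale). The farthest was Suox, sulfite oxidase, the last step of cysteine sulfur oxidation, with 631 and 15179 counts (4.67, interval 4.56 to 4.79). Cdo1, which starts cysteine oxidation, had 55240 and 80247 counts (0.62), and Csad, on the branch to taurine, 10988 and 5743 (-0.85), so the branches of cysteine use stood on opposite sides. Chdh, which begins betaine synthesis from choline, had 1096 and 5010 counts (2.28), opposite to Bhmt, which uses betaine.

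The other higher enzymes came from several pathways. Mut, the methylmalonyl-CoA mutase that ends the breakdown of valine and isoleucine carbon, had 1711 and 4048 counts (log2 ratio 1.33), and Hsd17b10 of isoleucine breakdown had 16313 and 32137 (1.06). Dhtkd1 of lysine breakdown had 448 and 1091 counts (1.37). Glyoxylate is handled by Agxt2, with 2914 and 7149 counts (1.38), and produced by Hoga1, with 2822 and 5886 (1.15), both on the side of Agxt. Srr, serine racemase, had 1357 and 4931 counts (1.95), with 30.0% of its exon bases shared with genes on the opposite strand. Lower by more than 2-fold was Asns, which makes asparagine (349 and 58 counts, -2.49). Glul, glutamine synthetase of pericentral cells, had 75666 and 63019 counts (-0.18).

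Carriers of amino acids stood mostly lower. Of 19 compared, 3 lay above 0 and 16 below, while 49.2% of all genes compared lay above 0. By 2-fold, 2 were lower and 0 higher, against 8.61% and 8.45% of all genes compared. The median log2 ratio was -0.46. Slc16a10, which moves aromatic amino acids across the cell membrane, had 7096 and 1066 counts (-2.65), and Slc3a1 had 5076 and 2007 (-1.25, with 26.5% of its exon bases shared with Prepl). Both genes were named for being past 2-fold, so they necessarily lie below the interquartile range of the 4725 like genes. Among mitochondrial carriers tied to the urea cycle, there were 16002 and 14111 counts for the ornithine carrier Slc25a15 (-0.10) and 7092 and 4864 for the aspartate and glutamate carrier Slc25a13, which lay at the list's median (-0.46). The list's highest gene was Slc38a2, with 3794 and 5399 counts (0.59).

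Regulators known to act on these pathways were spread in both directions, with a median log2 ratio of 0.01 over 17 genes. Of the 17, 3 were higher and 3 lower by 2-fold, against 8.45% and 8.61% of all genes compared. Hnf4a, a main hepatocyte transcription factor, had 7694 and 16348 counts (1.17). The glucocorticoid receptor Nr3c1 had 1144 and 1648 counts (0.61). Glucocorticoid targets in the list stood on opposite sides, with Tsc22d3 at 4184 and 7991 counts (1.02) and Fkbp5 at 4020 and 711 (-2.41). Klf15, which drives amino acid breakdown in fasting, had 4995 and 4163 counts (-0.18), and the coactivator Ppargc1a had 130 and 58 (-1.07). Cebpb had 3500 and 7817 counts (1.24), but it has a single exon. Of 354 single-exon genes compared, 30.8% had no counts in 1 of the libraries, against 0.104% of 10560 genes with at least 4 exons. Cebpa, annotated with 2 exons, was listed at 0 in both libraries and is not among the genes compared. Each member has 6 exons or more and counts in both libraries.

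**Figure D3:**
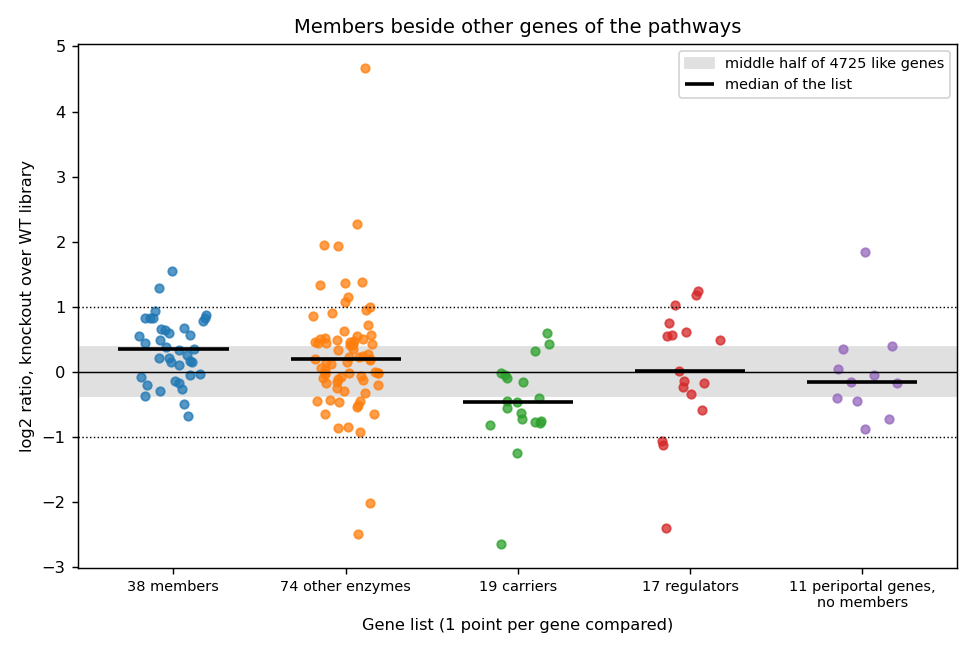
The log2 ratio of knockout over WT library (y axis) is plotted for each gene compared in 5 lists (x axis, 1 point per gene), with a bar at the median of each list, a grey band for the interquartile range of 4725 like genes and dotted lines at 2-fold. The members have the highest median (0.34) and lie between -0.68 and 1.54, carriers have the lowest median (-0.46), and Suox is the point at 4.67.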

How the data were processed

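Total RNA of mouse liver was made into mRNA libraries with a SMARTER kit, per the labels' protocols. The authors deposited an unnormalized count for each Ensembl gene, per the file headers. The submitters' processing notes name GRCm38 (mm10). The aligner, the counter, strandedness and the handling of multiply mapped reads are not given in the sources used here. Of 55421 genes, 55154 had an entry in GENCODE M21, and the other genes held 0.00541% of WT counts and 0.00956% of knockout counts.

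Libraries were scaled with TMM factors of 1.02 (WT) and 0.982 (knockout) from edgeR 4.0.16 in R 4.3.3. Each count was raised by 0.5, in proportion to the library, ahead of the log2 ratio. Genes whose counts averaged 50 or more were compared, and 2-fold was the limit. No test of edgeR or DESeq2 was run, since there is 1 library per genotype. Exact conditional (Clopper-Pearson) 95% intervals cover counting error only, and reads copied by PCR, with no molecular identifiers, do not each stand for a molecule. TPM used the union of a gene's exons as its length. Words of 50 bases were compared, on both strands, among all GENCODE M21 transcripts, and exon overlaps came from the same annotation. The calculations were tested on simulated counts.

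The members and gene lists were chosen with earlier results of these data known. All members are named, and of the other lists each gene past 2-fold, with Slc25a15, Slc25a13, Glul, Klf15, Cebpa, Cebpb and Nr3c1 whatever their values. Some genes that this rule took are not reported. Other genes of these lists (Cdo1, Csad, Gcsh, Dld, Slc38a2, Apoc2, Hsd17b6, Grhpr, Ido2, Acmsd, Aadat, Qprt, Kyat1 and Kyat3) were named after their values were seen. So were the single markers Trf, Apoa2, Tstd1, Spp1, Oit3, Bmp2, Vsig4, Timd4, Alas2 and Klf1. Alternatives were DESeq2 1.42.0 size factors, total count scaling, other filters, added counts and limits, removal of a lowess trend with GC content, genes with at least 4 exons and, chosen after seeing the data, TPM scaling.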

Additional observations from a re-analysis of the deposited data

How the results depend on the processing

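No paired analysis was possible because each genotype has 1 library, and for the same reason no replicate could be left out. The 2 members past 2-fold remained at that number with DESeq2 size factors, total count scaling, TPM scaling, no filter, a filter at 500 counts, 5 reads added, at least 4 exons and an interval wholly beyond 2-fold. With the GC trend removed 3 were past it, since Uroc1 and Ahcy crossed the limit and Tdo2 came back inside. A limit of 4-fold left 0 members higher, and a limit of 1.5-fold gave 13 higher and 1 lower. The members' median log2 ratio lay between 0.29 and 0.40 under the planned settings, and was 0.20 on the TPM scale, which lowers all genes by 0.14. The median of the other enzymes was 0.0486 on that scale. With the GC trend removed, single members moved by -0.45 to 0.27, and Asl, Kynu, Sds and Fah changed sign. On the TPM scale Prodh did, and Aldh4a1 came to 0. The log2 ratio of the members' shares of counts was 0.25, and 0.28 without the 10 highest genes of either library. Neither depth nor these settings can show how much of any difference mice of 1 genotype would show among themselves.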
